A study of Arabidopsis thaliana with 6 samples.

Results

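The iron acquisition and homeostasis genes described here are 36 named loci among the 24379 genes in the deposited expression table. They were chosen by locus ID, from what each is known to do, and cover the uptake transporter and reductase families (IRT and FRO), the regulator FIT and the subgroup Ib bHLH factors, the IMA peptides, BTS and PYE, coumarin synthesis and export, nicotianamine synthases, ferritins, and the NRAMP and vacuolar iron transporters. The rule uses no measured value, but earlier results of these data were known when the members and the other gene lists were chosen. All 36 were present in the table, and 26 passed the expression filter used for testing, a minimum FPKM of 1 reached by 3 or more samples. FPKM is the number of fragments on a transcript, scaled to its length and to all mapped fragments of the sample. Each of these 26 reached an FPKM of 1 in every sample, so none passed through a single group. The remaining 10 (IRT2, bHLH38, bHLH100, MYB72, NAS3, IMA1, IMA2, IMA3, CYP82C4 and S8H) were described by their values.

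RNA was sequenced from roots of 7-day-old Arabidopsis thaliana seedlings of the wild-type accession Col-0, to look for genes that respond to aluminum (Al) in the root tip. Both groups grew in hydroponic MGRL nutrient solution, and by their labels they differed in Al alone: 3 samples were treated with 25 µM AlCl3 for 3 h and 3 were controls. The labels name the tissue as roots, and the study's text narrows it to about 0.5 cm from the tip. Nothing states that the samples came from separate cultures, so the p-values measure the spread between these samples, which may be technical. Each sample held an estimated 21850000 to 22100000 fragments, read from the spacing of low FPKM values. ALMT1, the Al-activated malate transporter, checked the treatment label. It was at 13.1, 15.7 and 17.4 FPKM in Al 1, 2 and 3 and at 0.47, 0.73 and 0.50 in control 1, 2 and 3. ALS3, another Al tolerance gene, was higher by 0.48 on the log2 scale (SE 0.10, n = 3 per group, limma adjusted p = 0.00296).

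Arabidopsis takes up iron by reduction. The root surface acidifies the soil and secretes coumarins that mobilize ferric iron, FRO2 reduces it, and IRT1 carries the ferrous ion into epidermal cells. FIT, a bHLH transcription factor, drives FRO2 and IRT1 together with a partner of subgroup Ib (bHLH38, bHLH39, bHLH100 or bHLH101), and these partners are themselves induced by iron deficiency. Inside the plant nicotianamine chelates iron for movement between cells, ferritins store it in plastids, and vacuolar transporters load or release it.

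Al treatment was followed by changes in both directions among these genes. The reductase FRO2, the transporter IRT1 and their regulator FIT were lower, as were the coumarin exporter PDR9, the ferritins FER1 and FER3, and 5 of 8 NRAMP and vacuolar transporters. The coumarin enzyme F6'H1, the phloem iron transporter OPT3, the nicotianamine synthase NAS1, the factors bHLH39 and PYE and the vacuolar exporter NRAMP3 were higher. In all, 6 of the 26 tested members were called higher (adjusted p under 0.05), against 21.3% of all 18463 genes tested, and 11 were called lower, against 38.5%. These are 23.1% and 42.3% of the members, shares near those of all genes. The FPKM values of the Al and control samples did not overlap for 19 members (73.1%), against 66.3% of all genes tested. With a change of at least 1 on the log2 scale, 3 members were called higher (6.45% of all genes) and 2 lower (2.88% of all genes). The median log2 fold change was -0.21 over the members tested and -0.13 over all genes tested. All fold changes are given as Al minus control on the log2(FPKM + 1) scale, which understates the change of low genes. Scaling the samples by median ratios moved the median of all genes to -1.24e-05, and 7 members were then called higher and 8 lower. Under it the called genes of the whole table split into 5381 higher and 4984 lower, in place of 3933 and 7106. In bulk RNA, fewer cells of a type and less RNA per cell cannot be told apart.

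**Figure D1:**
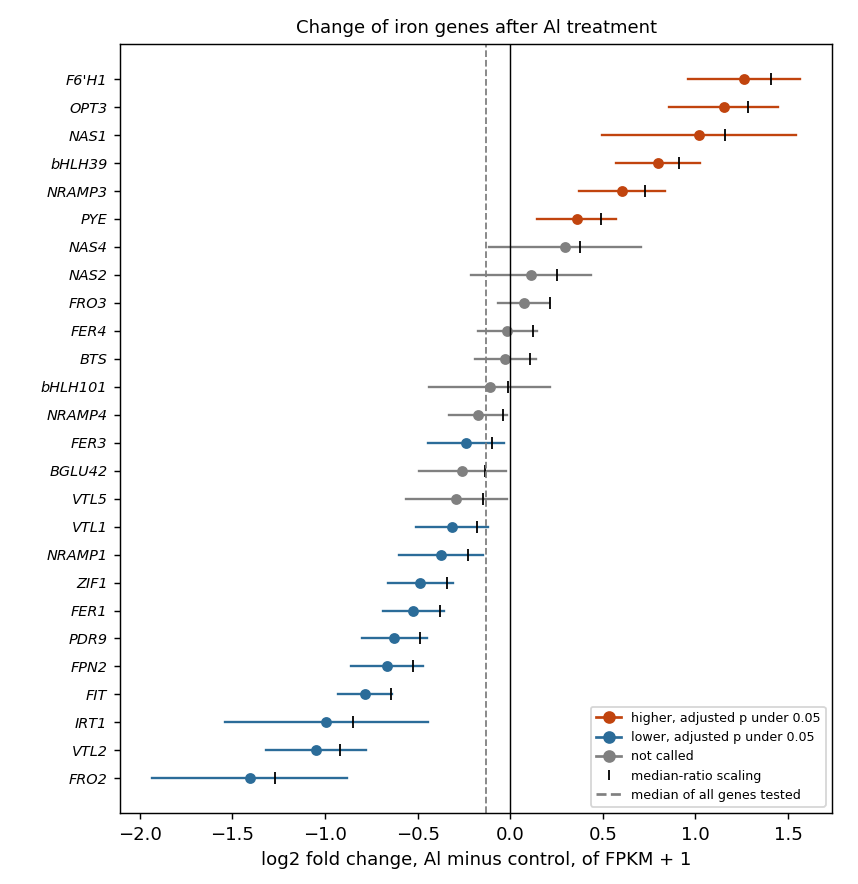
Change of each of the 26 iron genes tested, as the log2 fold change of FPKM + 1 (Al minus control), with its 95% confidence interval from limma (n = 3 per group). Black ticks give the value under median-ratio scaling and the dashed line the median of all genes tested (-0.13); the genes run from 1.26 for F6'H1 to -1.41 for FRO2.

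Markers of several root cell types were lower in the same samples, and no marker gene was called higher at the deposited scaling. At that scaling 38.5% of all genes tested were called lower and 21.3% higher. Each marker list is short, with 3 to 7 genes. Under median-ratio scaling SHR, from the list for the meristem and stem cell niche, was called higher (0.24, adjusted p = 0.0231). With the same scaling 3 in place of 5 endodermis markers were called lower, since CASP1 (adjusted p = 0.174) and ESB1 (adjusted p = 0.0616) lost their call. All 5 root hair cell markers were called lower, with a summed FPKM of 26.0 to 32.4 in Al and 72.5 to 105.4 in control samples. The 3 root cap markers (10.1 to 12.3 against 22.8 to 26.7), 5 of 7 endodermis markers (144.6 to 171.2 against 182.2 to 250.1) and 2 of 3 stele markers (173.5 to 191.6 against 277.7 to 301.4) were also called lower. Of the meristem and niche markers 2 of 4 tested were called lower (49.2 to 51.1 against 54.9 to 57.1). Green shoot tissue also had 2 of 4 tested markers called lower (15.5 to 21.4 against 21.6 to 24.8). No marker was at 0 in all samples. The part of these shifts in the results on iron genes was not tested.

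Because subgroup Ib and related bHLH factors bind DNA at E-boxes, the 250 bases before each annotated gene start were read from the TAIR10.1 genome (RefSeq) and searched on both strands for the G-box, CACGTG, and the wider E-box, CANNTG, of which every G-box is also a match. A G-box was present in 6 of 36 members (16.7%), and in 6.88% of 24173 promoters of the table. An E-box was present in 22 members (61.1%), and in 55.9% of all promoters. A match is a description of the letters and not of a bound site. The 6 genes did not move as a group. OPT3 was called higher and FER3 lower, BTS and FER4 were not called, and bHLH38 and bHLH100 were under the filter. The windows of IRT1 and FRO2 held neither motif. The G-box windows are shown because they carry the motif shared by these 6 genes. Each has 40 bases, written 5′ to 3′ on the strand of the gene, and capitals mark G-box letters. The first pair of boxes in BTS lie so close that each window holds 1 capital letter of its neighbour.
bHLH38 (chr3:21085320-21085359, minus): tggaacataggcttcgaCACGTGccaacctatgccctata
bHLH100 (chr2:17199523-17199562, minus): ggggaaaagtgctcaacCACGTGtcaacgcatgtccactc
OPT3 (chr4:9250399-9250438, minus): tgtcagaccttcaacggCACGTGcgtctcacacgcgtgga
BTS box 1 (chr3:6273803-6273842, plus): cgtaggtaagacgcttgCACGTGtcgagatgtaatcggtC
BTS box 2 (chr3:6273825-6273864, plus): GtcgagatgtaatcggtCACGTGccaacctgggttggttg
BTS box 3 (chr3:6273879-6273918, plus): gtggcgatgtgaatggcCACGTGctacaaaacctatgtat
FER3 (chr3:20816089-20816128, minus): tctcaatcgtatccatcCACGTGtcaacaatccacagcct
FER4 (chr2:16833341-16833380, minus): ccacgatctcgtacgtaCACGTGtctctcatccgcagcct

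The 6 genes hold a G-box that begins 69 to 97 bases before the gene start, and BTS has further ones at 124 and 146 bases. The full windows of OPT3 (chr4:9250344-9250593, minus strand) and F6'H1 (chr3:4449009-4449258, plus strand), the members with the largest rises, are shown with every E-box in capitals. OPT3 has 3 E-boxes, of which the middle one is the G-box, and F6'H1 has 3 E-boxes and no G-box.
OPT3: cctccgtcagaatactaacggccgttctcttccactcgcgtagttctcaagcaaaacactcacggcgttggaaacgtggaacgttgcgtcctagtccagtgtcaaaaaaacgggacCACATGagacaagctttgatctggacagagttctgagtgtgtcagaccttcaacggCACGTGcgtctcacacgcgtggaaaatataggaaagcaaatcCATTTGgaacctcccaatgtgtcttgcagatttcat
F6'H1: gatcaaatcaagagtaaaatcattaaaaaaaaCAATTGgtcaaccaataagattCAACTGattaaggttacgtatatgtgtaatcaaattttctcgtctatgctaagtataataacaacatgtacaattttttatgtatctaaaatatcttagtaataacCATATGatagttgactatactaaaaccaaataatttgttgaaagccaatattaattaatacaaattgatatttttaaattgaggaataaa

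**Figure D2:**
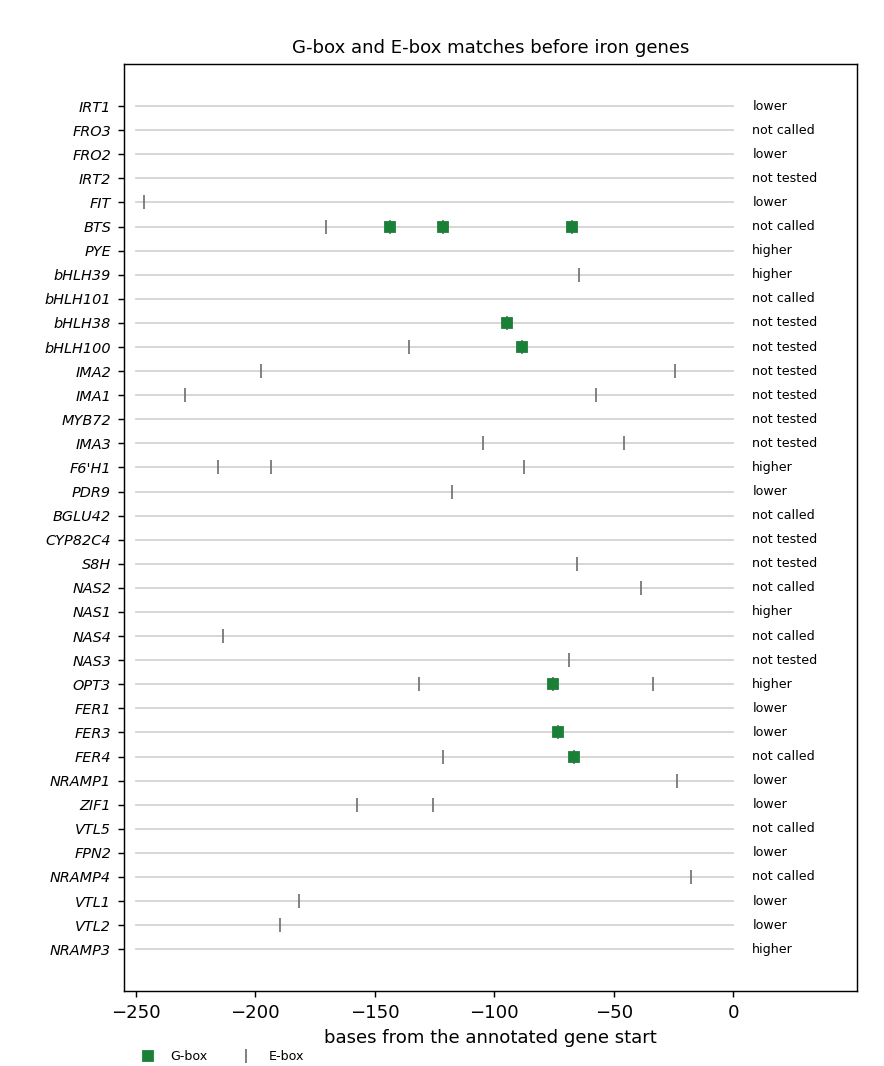
Position of G-box (green squares) and other E-box (grey ticks) matches in the 250 bases before each of the 36 iron genes, in bases from the annotated gene start, with each gene's call on the right. The G-boxes stand in 6 genes with different calls, at 69 to 146 bases before the start.

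Of the 4 uptake genes, 2 of the 3 tested were called lower (38.5% of all genes tested were) and none higher (21.3%). FRO2 (AT1G01580, chromosome 1, 8 exons), the ferric chelate reductase of the root surface, was at 6.39, 9.34 and 6.50 FPKM in Al 1, 2 and 3 and at 19.0, 31.6 and 15.4 in control 1, 2 and 3. Every Al sample was below every control sample, and the mean was 7.41 ± 1.67 against 22.0 ± 8.54 (SD, n = 3 each). The log2 fold change was -1.41 (SE 0.23, adjusted p = 0.000754), the largest fall among the members. IRT1 (AT4G19690, chromosome 4), the main ferrous iron transporter of the root, was at 18.9, 25.1 and 16.1 FPKM in the Al samples and at 39.5, 59.2 and 27.7 in the controls. The groups did not overlap, but control 3 lay close to Al 2. The log2 fold change was -0.99 (SE 0.24, adjusted p = 0.00661). In both genes replicate 2 was highest in each group, and the controls were widely spread, with a coefficient of variation of 37.8% for IRT1 and 38.8% for FRO2. Both genes kept their call when any single sample was left out.

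FRO3 (AT1G23020), a mitochondrial reductase of the same family, stayed between 39.2 and 42.3 FPKM in the Al samples and 38.6 and 40.0 in the controls. Its log2 fold change was 0.072 (95% interval -0.065 to 0.21, adjusted p = 0.329), and it was called higher under median-ratio scaling (0.22, adjusted p = 0.0106). FRO3 overlaps AT1G23010 on the other strand, and whether the counting used strand is not given in the sources used here. IRT2 (AT4G19680), the neighbour and close relative of IRT1, was under the filter. It was at 0.47, 0.43 and 0.40 FPKM in the Al samples and at 0.65, 1.54 and 0.83 in the controls, so the groups did not overlap. Fitted without the filter its log2 fold change was -0.46 (adjusted p = 0.0369). The 5 root hair cell markers, from the same epidermal layer, were lower in the same samples, and their part in the falls of IRT1 and FRO2 was not tested.

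Of the 11 regulators 5 were tested, with 2 called higher (21.3% of all genes tested were) and 1 lower (38.5%). FIT (AT2G28160, chromosome 2, from 12004658 to 12006276) was at 21.8, 22.15 and 20.7 FPKM in the Al samples and at 38.2, 39.1 and 36.2 in the controls. Its replicates were close together, with a coefficient of variation of 3.89% in the controls, and the groups were far apart. The log2 fold change was -0.79 (SE 0.064, adjusted p = 1.01e-05), the smallest adjusted p among the members. FIT was the only regulator called lower. Its partner bHLH39 (AT3G56980) moved the other way. It was at 5.01, 5.52 and 4.53 FPKM in the Al samples and at 2.29, 2.59 and 2.49 in the controls, a 2.04-fold higher mean, with a log2 fold change of 0.80 (SE 0.10, adjusted p = 0.000152). No Al sample overlapped a control sample.

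The other subgroup Ib factors were low. bHLH101 (AT5G04150) lay at 1.72 to 2.40 FPKM in Al and 1.84 to 2.88 in control samples, with a log2 fold change of -0.11 (95% interval -0.44 to 0.22, adjusted p = 0.532). bHLH38 (AT3G56970), which lies beside bHLH39 on chromosome 3, was at 1.03, 1.72 and 0.67 FPKM in the Al samples and at 0.70, 0.65 and 0.94 in the controls, and the groups overlapped. bHLH100 (AT2G41240) was at 0.93, 1.36 and 1.25 against 0.56, 0.74 and 0.37, without overlap. Both were under the filter. In a fit without it bHLH100 had a log2 fold change of 0.49 (adjusted p = 0.00968) and bHLH38 one of 0.25 (adjusted p = 0.265). bHLH38 and bHLH101 each overlap a gene on the other strand.

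PYE (AT3G47640), a bHLH factor of the pericycle that represses several iron genes, was at 13.3, 13.99 and 11.3 FPKM in the Al samples and at 9.22, 10.3 and 9.84 in the controls. The groups did not overlap, and the log2 fold change was 0.36 (SE 0.094, adjusted p = 0.00902). BTS (AT3G18290), a ubiquitin ligase with hemerythrin domains that limits the iron deficiency response, lay between 11.02 and 12.1 FPKM in all 6 samples. Its log2 fold change was -0.026 (95% interval -0.19 to 0.14, adjusted p = 0.776) and turned to 0.11 under median-ratio scaling, without a call.

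The IMA peptides, short proteins that promote iron uptake, were barely detected. AT1G47400 (IMA1) was at 0.73, 0.83 and 0.68 FPKM in the Al samples, which amounts to an estimated 11.9, 13.4 and 10.9 fragments. In control 1, 2 and 3 it was listed at 0, 0.28 and 0.06, an estimated 0, 4.54 and 0.968 fragments. The groups did not overlap, and without the filter the log2 fold change was 0.66 (adjusted p = 0.00114). AT1G47395 (IMA2), its neighbour on chromosome 1, was at 0.93, 0.83 and 0.40 against 0.29, 0.26 and 0.12 FPKM (0.48, adjusted p = 0.0155 without the filter). AT2G30766 (IMA3) was listed at 0 in all 6 samples. Its model overlaps AT2G30760 and AT2G30770 on the other strand. MYB72 (AT1G56160), a factor for coumarin secretion, lay at 0.14 to 0.23 FPKM in Al and 0.05 to 0.09 in control samples, an estimated 1.09 to 4.98 fragments in any sample.

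**Figure D3:**
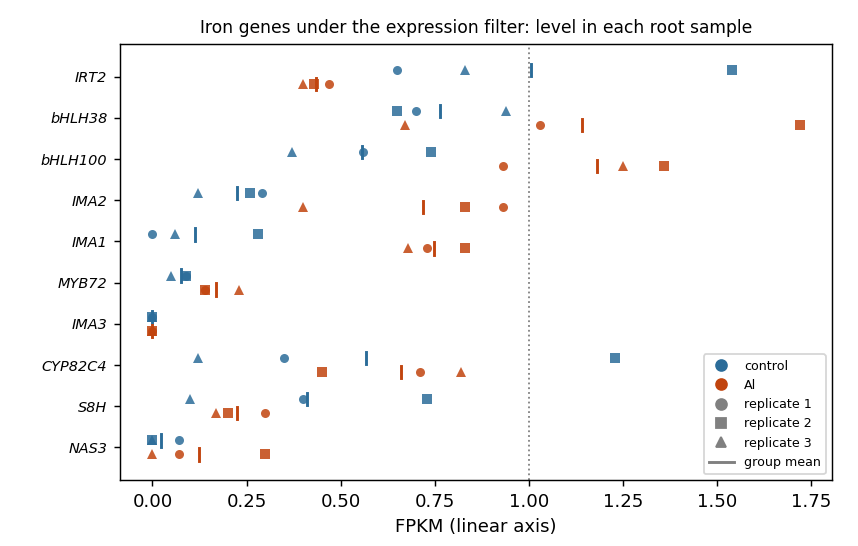
Level of the 10 iron genes under the expression filter in each of the 6 samples, in FPKM on a linear axis, with group means as bars and the filter's limit of 1 as a dotted line. IMA1, IMA2, bHLH100 and MYB72 were higher in every Al sample than in any control sample, IRT2 was lower, the rest overlapped, and IMA3 was listed at 0 throughout.

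Of the 5 coumarin genes 3 were tested. A synthesis gene, 1 of the 3, was called higher (21.3% of all genes tested were), and the exporter was called lower (38.5%). F6'H1 (AT3G13610, chromosome 3), which makes the precursor of scopoletin, was at 174, 198 and 245 FPKM in the Al samples and at 93.2, 89.05 and 71.9 in the controls. The lowest Al sample was well above the highest control. The log2 fold change was 1.26 (SE 0.13, adjusted p = 5.24e-05), the largest rise among the members, and the mean was 2.43-fold higher. F6'H1 overlaps AT3G13620 on the other strand. PDR9 (AT3G53480), the ABC transporter that exports phenolics from the root, was at 18.6, 18.5 and 18.3 FPKM in the Al samples and at 26.1, 30.2 and 30.95 in the controls. The Al samples were nearly identical and all lay below the controls, with a log2 fold change of -0.63 (SE 0.077, adjusted p = 0.000134).

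BGLU42 (AT5G36890), a glucosidase that frees coumarins from their sugar, lay at 3.78 to 4.85 FPKM in Al and 4.96 to 5.63 in control samples. Its log2 fold change was -0.26 (95% interval -0.49 to -0.023, adjusted p = 0.0572), and it was called lower without Al replicate 2 (adjusted p = 0.0376). The later steps of the pathway were low in these tips. S8H (AT3G12900), which makes fraxetin, was at 0.30, 0.20 and 0.17 FPKM in the Al samples and at 0.40, 0.73 and 0.10 in the controls. CYP82C4 (AT4G31940), which makes sideretin, was at 0.71, 0.45 and 0.82 against 0.35, 1.23 and 0.12. Both overlapped between the groups, and in both control 2 was the highest sample of its group. Of the 50-base stretches of the CYP82C4 transcript 8.50% also occur in AT4G31950, so its reads could be split between them.

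Of the 4 nicotianamine synthases 3 were tested, and 1, NAS1, was called higher (21.3% of all genes tested were). None was called lower (38.5%). NAS1 (AT5G04950) was at 34.55, 43.0 and 38.9 FPKM in the Al samples and at 26.05, 21.0 and 11.6 in the controls. Control 3 stood low, and all Al samples were above all controls. The log2 fold change was 1.02 (SE 0.23, adjusted p = 0.00454), and the call held when any single sample was left out. NAS2 (AT5G56080) overlapped between the groups, at 19.9 to 23.25 against 15.1 to 23.1 FPKM, with a log2 fold change of 0.12 (95% interval -0.21 to 0.44, adjusted p = 0.511). NAS4 (AT1G56430) was at 1.63, 2.47 and 1.05 against 1.40, 1.10 and 1.01 (0.30, adjusted p = 0.189), and it was called higher only without Al replicate 3 (0.48, adjusted p = 0.0299). NAS3 (AT1G09240) was at most 0.30 FPKM and was listed at 0 in 3 samples.

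OPT3 (AT4G16370, chromosome 4, from 9247302 to 9250343), which loads iron into the phloem and takes part in signalling iron status from shoot to root, was at 11, 14.2 and 13.3 FPKM in the Al samples. In the controls it was at 5.92, 5.53 and 4.21. The groups were well separated, with a 2.45-fold higher mean and a log2 fold change of 1.15 (SE 0.13, adjusted p = 7.64e-05). Of the 3 stele markers, from the tissue that holds the phloem, 2 were called lower in the same samples. Their part in the level of OPT3 was not tested.

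Of the 3 ferritins among the members, which store iron in plastids, 2 were called lower, as were 38.5% of all genes tested. FER1 (AT5G01600), the most abundant of the 3, was at 85.7, 84.3 and 79.8 FPKM in the Al samples and at 128, 109.6 and 123.4 in the controls. All Al samples lay below all controls, and the log2 fold change was -0.52 (SE 0.072, adjusted p = 0.000268). FER1 overlaps AT5G01595 on the other strand. FER3 (AT3G56090) was at 20.9 to 23.9 against 24.35 to 29.7 FPKM, with a log2 fold change of -0.24 (adjusted p = 0.0473). This call was lost under 9 of 15 alternatives, without Al replicate 1 (adjusted p = 0.135), Al replicate 3 (0.104) or control replicate 1 (0.163) among them, and its adjusted p ranged from 0.0147 to 0.389. FER4 (AT2G40300) lay between 16.2 and 18.4 FPKM in all samples (log2 fold change -0.015, 95% interval -0.18 to 0.15, adjusted p = 0.866), and its sign turned under median-ratio scaling (0.12). It overlaps AT2G40290 and shares 5.74% of its 50-base stretches with it. The summed level of the 3 genes was 122 ± 3.51 FPKM in Al and 164 ± 12.9 in control samples (SD, n = 3 each). The share of FER1 in this sum was 68.0% ± 1.22 against 73.4% ± 1.03. Another ferritin, FER2 (AT3G11050), is not a member and not in the sum. It was at 3.74, 4.37 and 4.18 FPKM in the Al samples and at 3.42, 3.73 and 3.51 in the controls. FER2 was not called (log2 fold change 0.16, limma adjusted p = 0.169), but was called higher under median-ratio scaling (0.28, adjusted p = 0.0281).

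Of the 8 NRAMP and vacuolar transporters, 5 were called lower (38.5% of all genes tested were) and 1 higher (21.3%). VTL2 (AT1G76800), a relative of the vacuolar iron importer VIT1, was at 3.52, 4.67 and 5.02 FPKM in the Al samples and at 9.55, 10.9 and 9.83 in the controls. It fell the most of the group, by 1.05 on the log2 scale (SE 0.12, adjusted p = 8.23e-05). FPN2 (AT5G03570), which loads iron and other metals into the vacuole, was at 15.1, 13.7 and 16.3 FPKM in the Al samples and at 23.01, 26.6 and 23.7 in the controls, without overlap (-0.67, SE 0.086, adjusted p = 0.00018). ZIF1 (AT5G13740), which carries nicotianamine into the vacuole, was at 22.3 to 26.2 against 32.4 to 35.85 FPKM (-0.48, adjusted p = 0.000684). These 3 genes kept their call under all 15 alternatives.

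NRAMP3 and NRAMP4 both release iron from the vacuole, and NRAMP3 was called. NRAMP3 (AT2G23150) was at 8.39, 8.58 and 7.67 FPKM in the Al samples and at 4.59, 4.81 and 5.84 in the controls, with a log2 fold change of 0.60 (SE 0.10, adjusted p = 0.000865) and no overlap. NRAMP4 (AT5G67330) was at 15.02 to 15.9 against 17.04 to 18.6 FPKM, also without overlap but in the other direction (-0.18, 95% interval -0.33 to -0.018, adjusted p = 0.054), and it was called lower under TPM scaling (adjusted p = 0.0177). NRAMP1 (AT1G80830), a transporter for manganese and iron at the cell surface, was the most abundant of the group in both treatments, at 131 to 164 against 169 to 200.5 FPKM. Its log2 fold change was -0.37 (adjusted p = 0.01), lost under median-ratio scaling (adjusted p = 0.119). VTL1 (AT1G21140) was at 10.1 to 11.85 against 12.7 to 14.2 FPKM (-0.31, adjusted p = 0.0119), lost under the same scaling (adjusted p = 0.104). VTL5 (AT3G25190) overlapped, at 22.0 to 29.6 against 28.4 to 35.55 FPKM (-0.29, adjusted p = 0.0618), and was called lower without Al replicate 2 (adjusted p = 0.0387) or control replicate 1 (adjusted p = 0.0292). NRAMP1 and FPN2 each overlap a gene on the other strand.

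**Figure D4:**
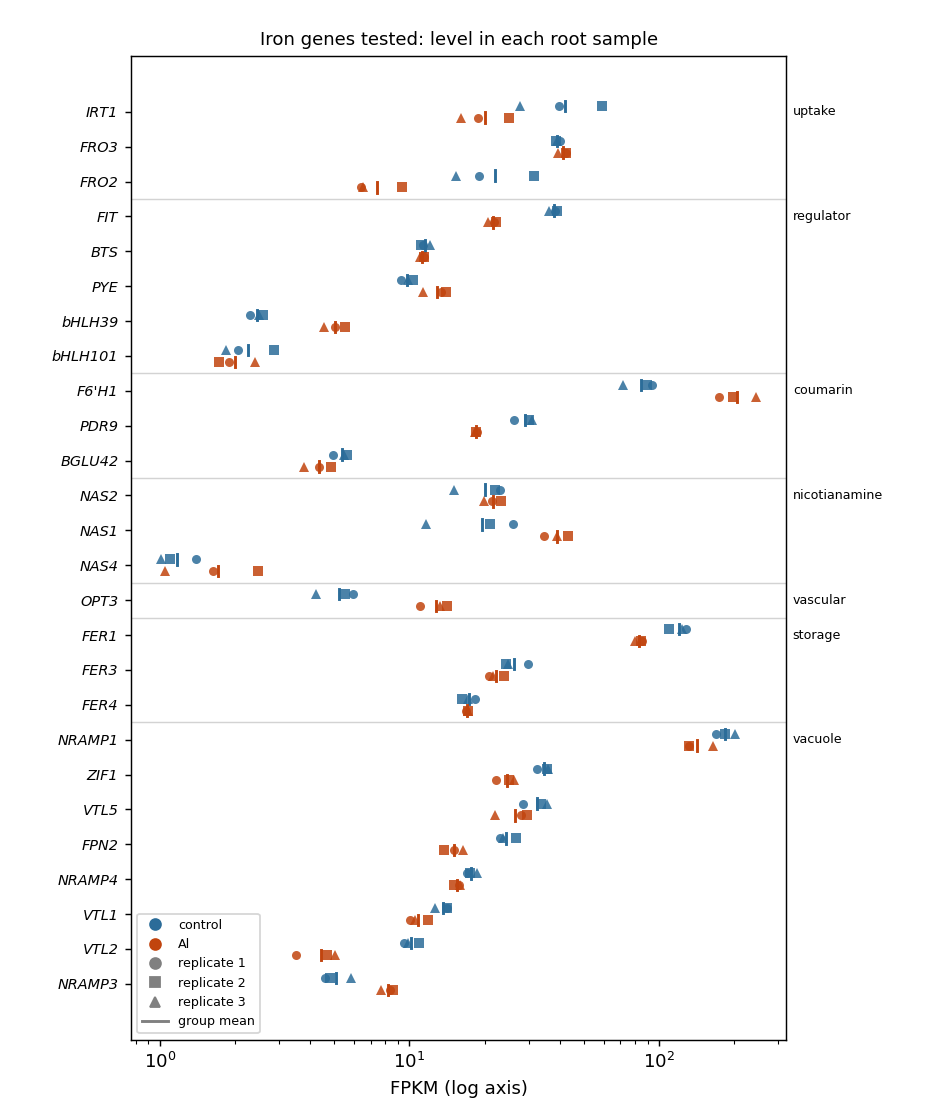
Level of the 26 iron genes tested in each of the 6 samples, in FPKM on a log axis, grouped by role, with symbols for the replicate numbers and bars for the group means. The levels run from about 1 for NAS4 to 245 for F6'H1, and FIT, FRO2, PDR9 and VTL2 lie lower in every Al sample while bHLH39, F6'H1, NAS1, OPT3 and NRAMP3 lie higher.

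A ratio within a sample is free of any single scaling factor for that sample, though quantile normalization or a GC correction can move it. The ratio was taken for 8 pairs of relatives or partners, chosen with the calls of their members known, so the separation of the groups follows in part from the choice and is a description. Each pair gave an exact two-sided permutation p of 0.1 (0.1 after adjustment over the 8), the smallest that 3 samples against 3 allow. The ratio of F6'H1 to PDR9 was 9.35, 10.7 and 13.4 in the Al samples and 3.57, 2.95 and 2.32 in the controls. The ratio of bHLH39 to bHLH101 was 2.58 ± 0.664 against 1.12 ± 0.227 (SD, n = 3 each), and that of NAS1 to NAS2 was 1.81 ± 0.174 against 0.95 ± 0.178. That of NRAMP3 to NRAMP4 was 0.529 ± 0.0442 against 0.286 ± 0.0244. In these pairs the ratio was higher in every Al sample, the first gene standing higher relative to the second. It was lower in every Al sample for FRO2 to FRO3 (0.179 ± 0.0367 against 0.564 ± 0.225), VTL2 to VTL1 (0.406 ± 0.0636 against 0.74 ± 0.0564) and FER1 to FER4 (4.88 ± 0.217 against 6.96 ± 0.217). The ratio of IRT1 to FRO2, both called lower, was 2.71 ± 0.24 in Al and 1.92 ± 0.145 in control samples. The large spread of IRT1 and FRO2 among the controls did not carry over to this ratio, which was 2.08, 1.87 and 1.80.

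**Figure D5:**
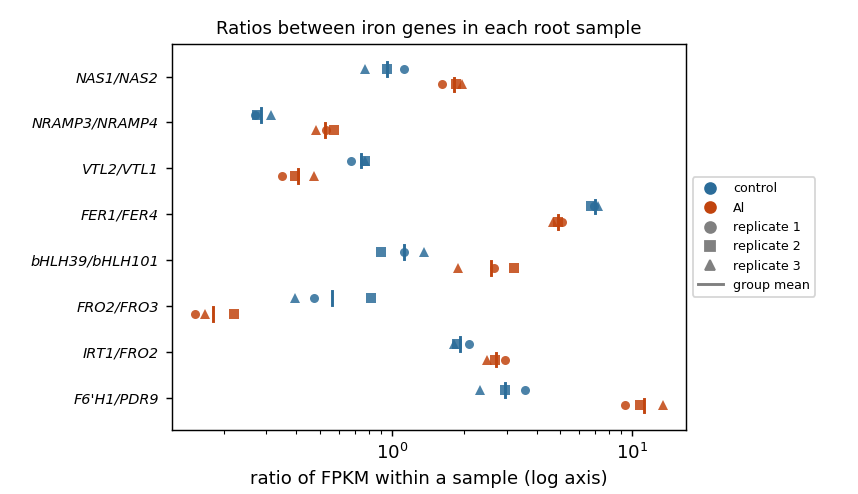
Ratio of FPKM between 8 pairs of iron genes within each of the 6 samples, on a log axis, with group means as bars. The pairs were chosen with the calls of their members known; the ratio of F6'H1 to PDR9, called in opposite directions, was 11.2 in Al and 2.95 in control samples on average.

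A further list of 35 iron genes, chosen for their known roles, held 34 genes of the table and 24 that passed the filter. Of these, 4 were called higher (16.7%, against 21.3% of all genes tested) and 11 lower (45.8%, against 38.5%). Under median-ratio scaling 7 were called higher and 7 lower. CCoAOMT1 (AT4G34050), which makes the feruloyl-CoA that F6'H1 uses, was at 604, 666 and 635 FPKM in the Al samples and at 325, 329 and 243 in the controls. It was called higher along with F6'H1, with a log2 fold change of 1.10 (SE 0.12, adjusted p = 5.53e-05). FRO5 (AT5G23990), a root reductase for copper, was at 5.29, 5.53 and 4.16 against 27.3, 28.3 and 16.8 FPKM. Its log2 fold change of -2.04 (SE 0.18, adjusted p = 1.76e-05) was the largest of this list.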

How the data were processed

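RNA-seq of 3 Al-treated and 3 control root samples was analysed, with groups and replicate numbers from the labels. Dose, time and the sampled tip were taken from the study's text. The deposited FPKM values of 24379 genes were made by the authors, normalized for transcript length and mapped fragments, with replicates kept apart. The aligner, counter and annotation are not given in the sources used here. The authors' log2 ratio, p-value and q-value columns were not used, nor were 6 columns repeating the FPKM values. Gene starts and ends of all 36 members equal TAIR10.1.

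The 18463 genes that reached an FPKM of 1 in 3 or more samples were tested on log2(FPKM + 1) with limma 3.58.1 in R 4.3.3 (mean-variance trend, no block). P-values were adjusted over all of them (Benjamini-Hochberg), with calls at 0.05. The members and gene lists were chosen for their known roles, but with earlier results of these data known. Values in every sample are given for members called with a log2 change of at least 0.5 and for FIT, IRT1, FRO2 and FER1. Of the other iron, the zinc and copper, and the iron-sulfur lists, genes called with a change of at least 1 are named. PYE, bHLH100, IRT2 and other members outside these rules were given in full after their values were seen. FER2, NFU4, ISU1, ATM3 and ZIP10 and the markers SHR, CASP1 and ESB1 were also named outside them. The fit and the depth estimate were tested on simulated data. Depth was read from the spacing of low FPKM values, of which 88.5% to 90.6% lay within 0.15 of whole fragments (30% by chance). Promoters were read from the RefSeq genome. The other tools were scipy 1.17.1, pandas 2.3.3, numpy 2.4.6 and matplotlib 3.10.9 in Python 3.11.15.

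Alternatives were a pseudocount of 0.1, no filter, an FPKM of at least 1 in every sample, a replicate block, the same block after each sample was corrected for transcript GC content by loess (span 0.3), median-ratio, TPM and quantile scaling, no trend, and each sample left out in turn.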

Additional observations from a re-analysis of the deposited data

How the results depend on the processing

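Of 17 members called, all 17 kept their direction under the 15 alternatives and 14 also kept their call, the exceptions being FER3, NRAMP1 and VTL1. Leaving out 1 sample at a time gave 6 to 7 members higher and 10 to 13 lower. TPM scaling gave 6 higher and 14 lower, adding NRAMP4, BGLU42 and VTL5. Signs turned among members that were not called, namely BTS with the replicate block and GC correction (0.050), median-ratio scaling (0.11) and quantile normalization (0.050), and FER4 under the same settings (0.074, 0.12 and 0.012). With 1 sample left out at a time the log2 fold change ranged from -0.20 to 0.023 for bHLH101 (above 0 without control replicate 2), -0.070 to 0.22 for NAS2 (below 0 without control replicate 3), -0.051 to 0.0060 for BTS (above 0 without control replicate 3) and -0.057 to 0.028 for FER4 (above 0 without control replicate 1). The causes were not tested. Counts moved by over 1.5 times where a log2 change of at least 1 was also asked: all genes then gave 1190 higher and 531 lower, the members 3 and 2, the other iron genes 1 and 1, the zinc and copper genes 1 and 2, and the iron-sulfur genes 0 and 0. Median-ratio scaling gave 7 higher and 7 lower among the other iron genes and 0 iron-sulfur genes lower, the block with GC correction also 0 lower, and TPM scaling and quantile normalization 1 higher. Leaving out 1 sample gave 1 to 2 iron-sulfur genes higher and 0 to 1 lower.

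Replicate numbers were not shown to pair the samples: deviations of same-numbered samples from their group means correlated at -0.25, -0.037 and -0.22. With a replicate block, 6 members were called higher and 10 lower, and 3648 and 6319 of all genes. The depth limits the members under the filter, where 3 fragments correspond to 0.185 FPKM for IMA1 and 0.0999 for NAS3.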

Other observations

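Some genes for neighbouring metals were called as well, in smaller shares than among all genes tested. Of 28 zinc and copper genes listed, 26 were in the table and 23 tested. Of these, 3 were called higher and 7 lower (4 and 5 under median-ratio scaling). At the deposited scaling both shares were below those of all genes tested (21.3% higher and 38.5% lower). The FPKM values of the groups did not overlap for 43.5% of the 23, against 66.3% of all genes tested. The zinc transporter genes ZIP5 (AT1G05300) and ZIP3 (AT2G32270) fell. ZIP5 was at 6.74, 7.59 and 7.24 FPKM in the Al samples and at 25.9, 25.7 and 26.4 in the controls, with a log2 fold change of -1.72 (SE 0.073, limma adjusted p = 1.31e-07). ZIP3 was at 13.9, 17.2 and 14.97 against 54.1, 54.5 and 47.7 (-1.70, SE 0.09, adjusted p = 5.9e-07). In both genes every Al sample was far below every control. PCR2 (AT1G14870), which exports zinc from cells, rose from 530, 539 and 513 FPKM in the controls to 1576, 1523 and 1818 in the Al samples (1.63, SE 0.092, adjusted p = 8.75e-07). ZIP10 (AT1G31260), under the filter, was at 0.04, 0 and 0 FPKM in the Al samples and at 1.47, 0.73 and 1.13 in the controls.

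Of 7 genes for iron-sulfur cluster assembly listed, 6 were tested. The shares called were 33.3% higher and 16.7% lower, against 21.3% and 38.5% of all genes tested. FPKM values did not overlap between the groups for 3 of the 6, against 66.3% of all genes tested. NFU4 (log2 fold change 0.27, adjusted p = 0.00377) and ISU1 (0.20, adjusted p = 0.0194) were called higher, and ATM3, a mitochondrial exporter, lower (-0.27, adjusted p = 0.0152). All 3 changes were small. The call of ATM3 was lost under median-ratio scaling (-0.13, adjusted p = 0.122), and the adjusted p of ISU1 reached 0.229 over the alternatives.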
